A study of Homo sapiens with 7 samples.

Results

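TP63 and TP73, the genes of p63 and p73, were followed in RNA-Seq data of silenced esophageal squamous cell carcinoma (ESCC) cells, by gene and by transcript. The members were all transcripts that the annotation of hg19 assigns to these genes, 14 of TP63 and 14 of TP73, or 28 of the 196354 transcripts and 2 of the 56236 genes in the abundance files. All 7 libraries were used. In TE5 cells they carried a non-targeting scramble shRNA, an shRNA against TP63, one against SOX2 or one against CCAT1. In KYSE140 cells they carried the scramble shRNA, an shRNA against TP63 or one against SOX2. TE5 and KYSE140 are established human ESCC lines, and all shRNAs were delivered with the lentiviral vector pLKO.1, so that the scramble cells also carry an integrated vector.

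Each condition of a line is 1 library, and a difference within a line therefore has no replicate check. By the labels, neither scramble library shared a sequencing lane with the knockdown libraries of its line (in TE5 not even the flow cell), so that lane and silencing cannot be told apart where every knockdown moves the same way. The study designed 1 shRNA against all TP63 isoforms and 1 against ΔNp63α alone, and the labels do not say which was used for these libraries. The libraries held between 68532611 and 98036494 estimated counts. The squamous markers KRT5, KRT6A, KRT17, DSG3, SERPINB5 and SFN were present in both lines, whereas KRT14, the basal keratin partner of KRT5, was between 7.23 and 29.1 normalized counts in the TE5 libraries and between 24592 and 156379 in those of KYSE140. Of 6 listed markers of other cell types, the leukocyte marker PTPRC and the intestinal VIL1 were at 0.236 TPM or less, and PECAM1 was not analysed here. The intestinal factor CDX2 was present in TE5 (507 to 1196 normalized counts, lowest in shTP63) and at 0 in the KYSE140 libraries. The collagen gene COL1A1 was present in both lines (2080 to 8622), and COL3A1 was at 74.8 in TE5 scramble, 472 in TE5 shTP63, 410 in TE5 shSOX2 and 15.3 in TE5 shCCAT1, and between 0 and 40.5 in KYSE140. The part of these genes in the values below was not tested.

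p63 and p73 are transcription factors that share a DNA-binding domain and an oligomerization domain. Each gene has an upstream promoter, which gives the TA isoforms with an N-terminal transactivation domain, and an internal promoter, which gives ΔN isoforms without it. Splicing at the 3′ end then gives C-termini called alpha, beta and gamma, of which alpha carries a sterile alpha motif (SAM) domain. ΔNp63 is the form of basal cells in stratified epithelia and of many squamous carcinomas. p73 is best known from neurons, from multiciliated cells and from the response to DNA damage.

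The stretches that tell the isoforms apart are short, and they are shown since they define the promoter classes, the C-termini and the exon 8 form of TP63 that the values below turn on. The sequences are from the hg19 reference, 5′ to 3′ on the plus strand, which is the strand of both genes. In the first pair, capitals mark the bases of exon 4, where the TA and ΔN transcripts of TP63 join. The TA junction runs from chr3:189456540-189456563 to chr3:189526061-189526084, and the ΔN junction from chr3:189507608-189507631 to the same bases of exon 4.
TA, exon 3 joined to exon 4: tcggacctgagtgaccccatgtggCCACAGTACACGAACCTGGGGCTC
ΔN, first exon joined to exon 4: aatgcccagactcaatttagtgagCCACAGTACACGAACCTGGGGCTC

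At the 3′ end, capitals mark the exon that sets the C-terminus. Alpha joins exon 12 (chr3:189607250-189607273) to exon 13 (chr3:189608578-189608601), beta joins exon 12 to exon 14 (chr3:189611995-189612007, where the annotated beta transcript ends), and gamma joins exon 10 (chr3:189590761-189590784) to an exon of its own (chr3:189597853-189597876), numbered 15 here.
alpha, exon 12 joined to exon 13: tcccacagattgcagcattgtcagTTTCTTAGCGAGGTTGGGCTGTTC
beta, exon 12 joined to exon 14: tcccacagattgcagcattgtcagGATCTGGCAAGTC
gamma, exon 10 joined to exon 15: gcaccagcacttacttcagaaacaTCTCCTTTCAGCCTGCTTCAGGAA

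Exon 8 has 2 annotated ends, which lie 12 bases apart. Capitals mark the 12 bases (chr3:189586494-189586505) that TP63-203 has and TP63-212 lacks.
end of exon 8 in TP63-203: agaacggtgatgGTACGAAGCGCC
TP63-203, exon 8 joined to exon 9: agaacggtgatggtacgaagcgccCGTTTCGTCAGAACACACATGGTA
TP63-212, exon 8 joined to exon 9: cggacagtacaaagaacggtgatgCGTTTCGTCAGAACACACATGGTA

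In the last pair of lines the capitals mark the exon 9 bases. TP73 has the same layout, and the first coding bases of its upstream transcripts are shown (exon 2, chr1:3598930-3598994), with the start codon in capitals.
TP73, exon 2: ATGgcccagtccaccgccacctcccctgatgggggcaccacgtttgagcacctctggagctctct

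**Figure D1:**
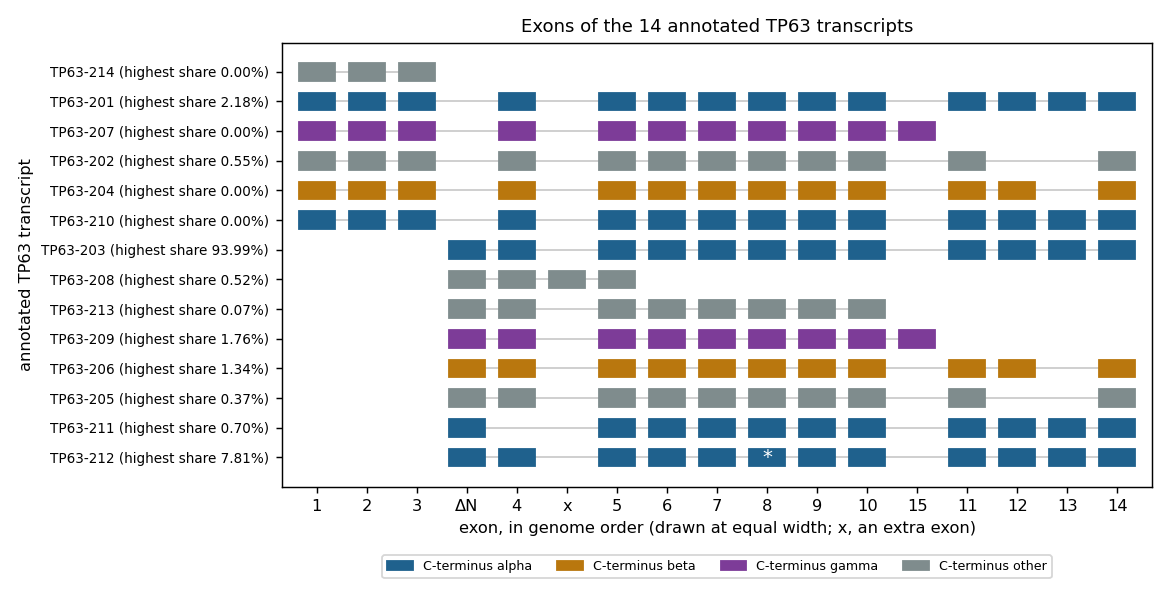
Exons of the 14 annotated TP63 transcripts, in genome order on the x axis and drawn at equal width, 1 transcript a row and coloured by C-terminus; the number beside each name is the transcript's highest share of TP63 counts in any library, and the asterisk marks the shorter exon 8. TP63-203, the long ΔN alpha transcript, reached 93.99% and TP63-212 reached 7.81%.

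TP63 (ENSG00000073282, chr3:189349178-189615065) was among the most abundant genes of both lines. Of normalized counts TE5 had 26628 in scramble, 6791 in shTP63, 30943 in shSOX2 and 22789 in shCCAT1. KYSE140 had 48023 in scramble, 12482 in shTP63 and 60308 in shSOX2. The shTP63 libraries were the lowest of their lines and of all 7, and the shSOX2 libraries were the highest of their lines. The counting intervals of no pair of neighbours in this order overlapped. By TPM, a level per transcript length, TP63 stood at the 96.1 percentile of the genes listed above 0 in TE5 scramble and at the 97.7 percentile in KYSE140 scramble, and at the 85.1 and 89.6 percentiles in the shTP63 libraries.

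The gene is the target of one shRNA, and its level was the check of the labels. TP63 was at 25.5% of the scramble level in TE5 shTP63 (log2 fold change -1.97, 95% interval -2.01 to -1.94) and at 25.99% in KYSE140 shTP63 (-1.94, -1.97 to -1.92). These intervals, as all below, cover counting error only. Of all genes, 5.53% were lower past a log2 fold change of 1 in TE5 shTP63 and 4.31% in KYSE140 shTP63. Fewer cells that express a gene and less RNA per cell cannot be told apart in these bulk libraries.

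To combine the lines, the scramble, shTP63 and shSOX2 libraries were fitted together, with the line as a block, in edgeR's quasi-likelihood test on 30171 genes and transcripts without a gene. The log2 fold change of TP63 upon TP63 silencing was -1.95 (standard error 0.12), with a Benjamini-Hochberg adjusted p of 0.287 by edgeR. The fit has 2 residual degrees of freedom, and it called 0.0% of the features after adjustment (threshold 0.1). It had 3336 features below 0.05 unadjusted, whereas DESeq2 called 2235 of 16716. With the transcripts without a gene left out, the same edgeR test gave TP63 an adjusted p of 0.0368 and called 220 of 23438 genes. The estimated dispersion was then 0.0457 against 0.141, so that the number called depends on these transcripts.

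TP63 was at 116% of the scramble level in TE5 shSOX2 (log2 fold change 0.22, 0.19 to 0.24) and at 126% in KYSE140 shSOX2 (0.33, 0.31 to 0.35). SOX2 itself, a transcription factor often gained with TP63 on chromosome 3, was 11916 normalized counts in TE5 scramble and 4719 in TE5 shSOX2. KYSE140 had 28689.8 in scramble and 21904 in shSOX2, a log2 fold change of -0.39 against -1.34 in TE5, so that the KYSE140 silencing was the shallower one. In the fit of both lines, TP63 differed by 0.25 upon SOX2 silencing (standard error 0.11, edgeR adjusted p = 0.697), a test that called 0.00331% of features, namely the transcript ENST00000539476 alone, which was looked up after its value was seen. In TE5 shCCAT1, TP63 was at 85.6% of scramble (-0.22, -0.25 to -0.20), and without scaling between libraries it was above scramble (0.16). CCAT1 was not analysed here.

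TP63 was higher in KYSE140 than in TE5 under each shared shRNA. In the fit the difference was 0.88 on the log2 scale (standard error 0.09, edgeR adjusted p = 0.00228), in a comparison that called 57.9% of the features.

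**Figure D2:**
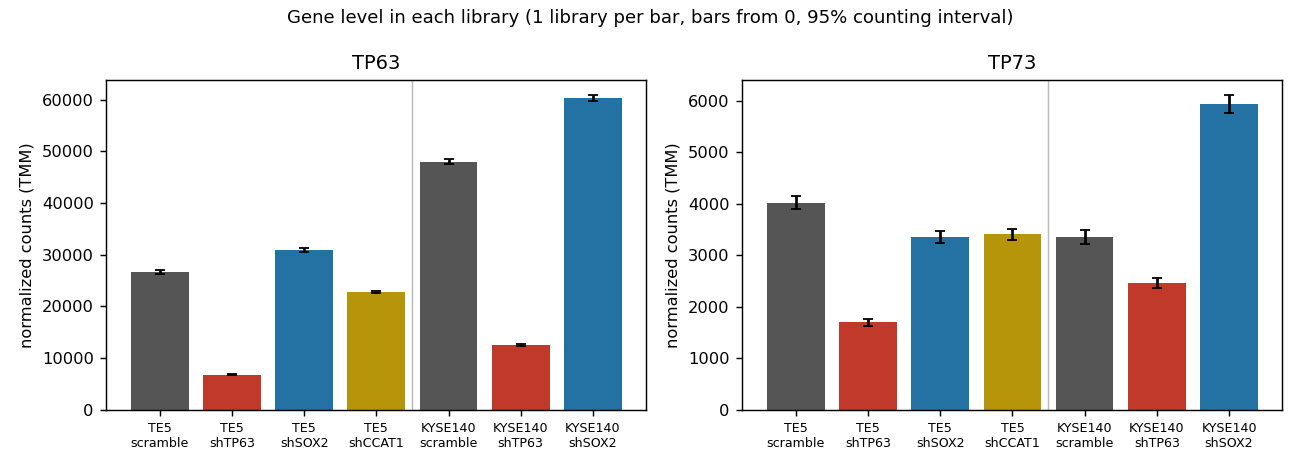
Normalized counts (TMM) of TP63 and TP73 in each of the 7 libraries, bars from 0 and on separate y axes, 1 library a bar, with 95% counting intervals. TP63 was lowest in the shTP63 libraries (6791 and 12482) and TP73 ranged from 1694 in TE5 shTP63 to 5931 in KYSE140 shSOX2.

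Transcripts of the ΔN promoter made up nearly the whole of TP63 in each library. They held 98.2% of the estimated counts of the gene in TE5 scramble and 97.6% in KYSE140 scramble, and between 97.7% and 99.8% in the knockdown libraries. The ΔN sum of TE5 was 26140 normalized counts in scramble, 6775 in shTP63, 30232 in shSOX2 and 22585 in shCCAT1. That of KYSE140 was 46888 in scramble, 12310.3 in shTP63 and 59376 in shSOX2. It thus moved as the gene did, with a log2 fold change upon TP63 silencing of -1.95 in TE5, -1.93 in KYSE140 and -1.93 in the fit of both lines (standard error 0.12, edgeR adjusted p = 0.287).

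The TA transcripts were rare. They summed to 489 normalized counts in TE5 scramble, 15.6 in TE5 shTP63, 712 in TE5 shSOX2 and 204 in TE5 shCCAT1. In KYSE140 they summed to 1135 in scramble, 172 in shTP63 and 932 in shSOX2. The shTP63 library was the lowest in both lines, while shSOX2 was above scramble in TE5 and below it in KYSE140. Upon TP63 silencing, the log2 fold change was -4.88 (-5.70 to -4.33) in TE5 and -2.72 (-2.96 to -2.49) in KYSE140. Upon CCAT1 silencing in TE5 it was -1.25 (-1.49 to -1.04), in a library where 6.03% of genes were lower past the threshold, but it was within the threshold without scaling (-0.87) or by TPM (-0.80). By TPM the TE5 shTP63 value was -3.56. In the fit the TA difference upon TP63 silencing was -3.52 with a standard error of 0.79 (edgeR adjusted p = 0.322), and it went from -5.18 without KYSE140 shTP63 to -2.55 without TE5 shTP63.

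These TA values depend on 1 transcript. ENST00000382063 is in the abundance files but not in the annotation used, lies among the TP63 transcripts in the order of the files, and is 4654 bases long, which is the length of the TA transcript TP63-201 (4909 bases) less that of exon 4 (255 bases). TE5 had 0 normalized counts of it in scramble, 136 in shTP63, 0.00134 in shSOX2 and 140.03 in shCCAT1. KYSE140 had 141 in scramble, 84.0 in shTP63 and 0.00036 in shSOX2, so that it was either near 0 or close to 100 without an order that the shRNAs share across lines. Counted with the TA transcripts, a choice made after the values were seen, it brings the log2 fold change upon TP63 silencing to -1.68 (-1.94 to -1.44) in TE5 and to -2.31 (-2.52 to -2.12) in KYSE140. The TA share of the gene is then 1.84% in TE5 scramble and 2.19% in TE5 shTP63, where it is 0.230% without this transcript. With it, the fitted TA difference was -2.02 (standard error 0.33, edgeR adjusted p = 0.302). The TA transcripts were lower in both shTP63 libraries either way, but whether they were lower by more than ΔN depends on this transcript in TE5.

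Upon CCAT1 silencing the TA difference was also smaller with it (-0.50, -0.70 to -0.32), within the threshold. Between the lines, the fit gave a TA difference of 1.54 (standard error 0.62, edgeR adjusted p = 0.0990) without it and of 0.82 (standard error 0.26, adjusted p = 0.0531) with it. The value without it went from 0.79 (without TE5 shTP63) to 2.24 (without KYSE140 shSOX2), and its call was lost with DESeq2's size factors, with no scaling, and without the scramble or the shTP63 library of either line.

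Of the annotated TA transcripts, TP63-201 (TA alpha) held the most counts. The TE5 values were 407 normalized counts in scramble, 9.10 in shTP63, 542 in shSOX2 and 126 in shCCAT1. The KYSE140 values were 1048 in scramble, 153 in shTP63 and 855 in shSOX2. TP63-202, a TA transcript that skips exons 12 and 13, was between 6.53 and 169 in all libraries, and TP63-204, TP63-207 and TP63-210 (TA beta, TA gamma and a second TA alpha) were listed at 0 in all 7.

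By C-terminus, alpha transcripts held between 95.9% and 98.8% of the TP63 counts. Beta, which is TP63-206 alone at these levels, was 298 normalized counts in TE5 scramble, 52.4 in TE5 shTP63, 410.2 in TE5 shSOX2 and 305 in TE5 shCCAT1. In KYSE140 beta was 210 in scramble, 45.0 in shTP63 and 487 in shSOX2. Gamma, which is TP63-209, was 396 in TE5 scramble, 54.2 in TE5 shTP63, 546 in TE5 shSOX2 and 387 in TE5 shCCAT1. In KYSE140 gamma was 196 in scramble, 58.2 in shTP63 and 259 in shSOX2. All 3 classes were lowest in the shTP63 library of their line.

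Upon TP63 silencing, alpha differed by -1.94 in both lines. Beta differed by -2.49 (-2.92 to -2.13) in TE5 and by -2.20 (-2.73 to -1.76) in KYSE140. Gamma differed by -2.85 (-3.25 to -2.49) in TE5 and by -1.74 (-2.20 to -1.31) in KYSE140. In TE5 the intervals of beta and gamma thus lay below that of alpha, and in KYSE140 they included it. In the fit of both lines the differences were -1.93 for alpha, -2.37 for beta (standard error 0.35) and -2.26 for gamma (standard error 0.43), with edgeR adjusted p of 0.287, 0.301 and 0.301. The silencing was therefore measured in ΔN, alpha, beta and gamma transcripts, and which shRNA gave it is not in the labels.

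Gamma and beta held less of the gene in KYSE140 scramble than in TE5 scramble. In scramble cells gamma held 1.49% of the TP63 counts in TE5 (95% Clopper-Pearson interval 1.34% to 1.64%) and 0.409% in KYSE140 (0.345% to 0.482%). Beta held 1.12% in TE5 (0.994% to 1.26%) and 0.437% in KYSE140 (0.372% to 0.513%). These intervals cover counting error in 1 library per line. Over all libraries gamma was between 0.798% and 1.76% in TE5 and between 0.409% and 0.466% in KYSE140, whereas beta, between 0.771% and 1.34% in TE5, reached 0.808% in KYSE140 and overlapped between the lines. By summed TPM the scramble shares were 2.35% and 0.675% for gamma and 3.39% and 1.38% for beta. Alpha alone was higher in KYSE140 in the fit (0.91, standard error 0.09, edgeR adjusted p = 0.00215). Gamma (-0.69, standard error 0.34, adjusted p = 0.152) and beta (-0.17, standard error 0.27, adjusted p = 0.633) were below 0 and did not pass. Gamma passed without TE5 shTP63 (-1.05, edgeR adjusted p = 0.0620), without KYSE140 shTP63 (-1.04, adjusted p = 0.0672) and with no scaling (-0.89, adjusted p = 0.0875). The beta call rests on little sequence, since only 16 words of 31 bases are held by the annotated beta transcripts and by no other TP63 transcript, against 1433 for gamma and 2800 for alpha.

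Upon SOX2 silencing, beta differed by 0.46 (0.24 to 0.68) in TE5 and by 1.21 (0.94 to 1.49) in KYSE140, and in the fit by 0.82 (standard error 0.33, edgeR adjusted p = 0.677). Of all genes, 6.91% were higher past the threshold in KYSE140 shSOX2. The beta share was 0.437% in KYSE140 scramble and 0.808% in KYSE140 shSOX2, with intervals that do not overlap.

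**Figure D3:**
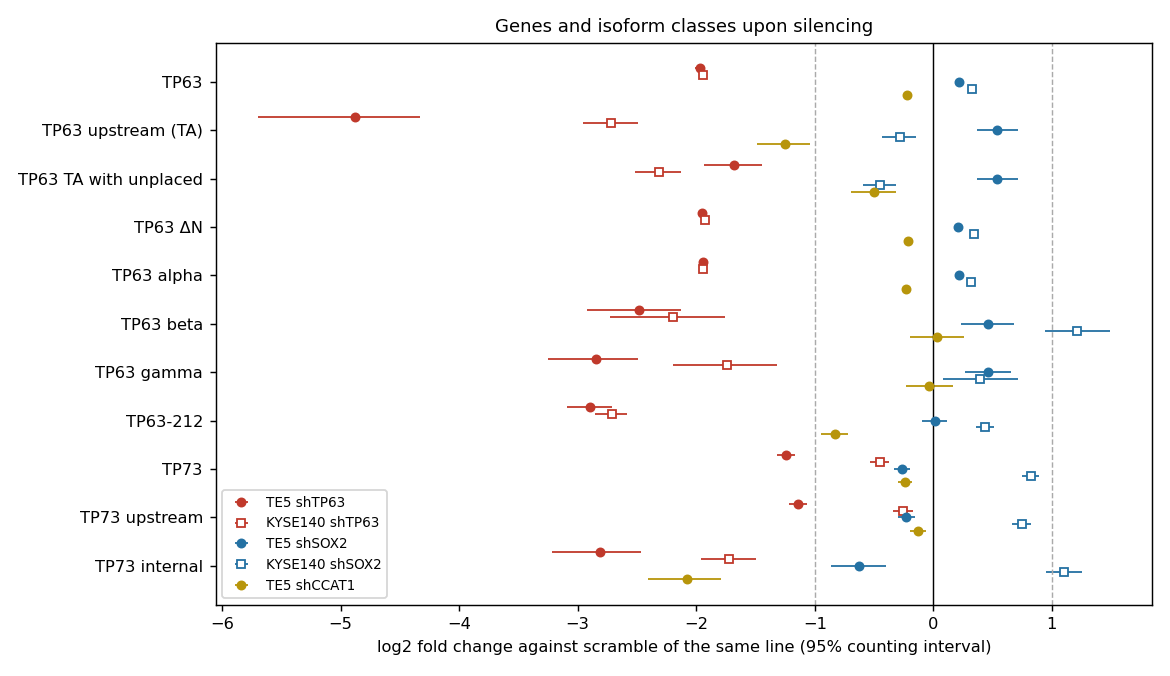
Log2 fold change of each knockdown library against the scramble library of its line, with 95% counting intervals, for TP63, TP73 and their isoform classes (circles, TE5; squares, KYSE140; dashed lines, the threshold of 1). Most TP63 classes lie between -1.68 and -2.90 upon TP63 silencing, and the TA class of TE5 moves from -4.88 to -1.68 when the transcript without annotation is counted with it.

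At the level of transcripts, TP63-203, the full-length ΔN alpha transcript, made up 88.3% of the gene in TE5 scramble and 89.2% in KYSE140 scramble. In TE5 it had 23505 normalized counts in scramble, 6383 in shTP63, 27486 in shSOX2 and 20819.5 in shCCAT1. In KYSE140 it had 42819.9 in scramble, 11651 in shTP63 and 53424 in shSOX2. TP63-212, a ΔN alpha transcript with the shorter exon 8, came next. Its counts in TE5 were 1574 in scramble, 210.5 in shTP63, 1586 in shSOX2 and 884 in shCCAT1. Its counts in KYSE140 were 3481 in scramble, 529 in shTP63 and 4711 in shSOX2.

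The share of TP63-212 was lower in the shTP63 library of both lines. It was 5.91% of the gene in TE5 scramble (5.62% to 6.21%) and 3.10% in TE5 shTP63 (2.75% to 3.48%). It was 7.25% in KYSE140 scramble (6.98% to 7.52%) and 4.24% in KYSE140 shTP63 (3.91% to 4.59%). TP63-203 moved the other way, to 94.0% and 93.3%. The log2 fold change of TP63-212 upon TP63 silencing was -2.90 (-3.09 to -2.72) in TE5 and -2.72 (-2.85 to -2.59) in KYSE140, against -1.88 in both lines for TP63-203. Its share was also lower in TE5 shCCAT1 (3.88%, 3.66% to 4.11%), a library of the same lane, and in TE5 shSOX2 (5.12%, 4.88% to 5.38%), so that every knockdown library of TE5 was below scramble and lane and silencing cannot be told apart there. In KYSE140 shSOX2 it was 7.81% (7.58% to 8.05%), above scramble. A test of the difference between both transcripts was not made. The assignment rests on the exon 8 to exon 9 junction printed above, whose shorter form gives 30 words of 31 bases that no other TP63 transcript without it holds, and the annotated TP63-212 covers coding sequence alone, so that reads in the untranslated ends count for TP63-203.

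In edgeR's fit of 98825 transcripts, 0.0% were called upon TP63 silencing, with 5880 at an unadjusted p under 0.05. DESeq2 called 2641 of 31446. In the edgeR fit TP63-203 differed by -1.88 (standard error 0.12, adjusted p = 0.829) and TP63-212 by -2.81 (standard error 0.19, adjusted p = 0.829). Between KYSE140 and TE5, where 32.0% of transcripts were called, TP63-203 differed by 0.80 (standard error 0.09, edgeR adjusted p = 0.0135) and TP63-212 by 1.25 (standard error 0.15, adjusted p = 0.0141), both higher in KYSE140.

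Accounting for all 14, 10 TP63 transcripts passed the filter of 10 counts in TE5 shTP63 or its scramble library, and all 10 were lower past the threshold, where 13.9% of all transcripts were. In KYSE140 8 passed and all 8 were lower, where 12% of all transcripts were. In TE5 shCCAT1 3 of 10 were lower (17.9% of all transcripts), in TE5 shSOX2 1 of 10 was lower (12.6%), and in KYSE140 shSOX2 4 of 9 were higher (18.2%). The remaining transcripts were too low in both libraries, and 4 of the 14 stayed under 3 counts in every library. A transcript could pass the filter through scramble alone, as TP63-211 did in KYSE140 with 0 in shTP63. The transcripts share most of their exons, so that these counts are not independent of the gene.

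**Figure D4:**
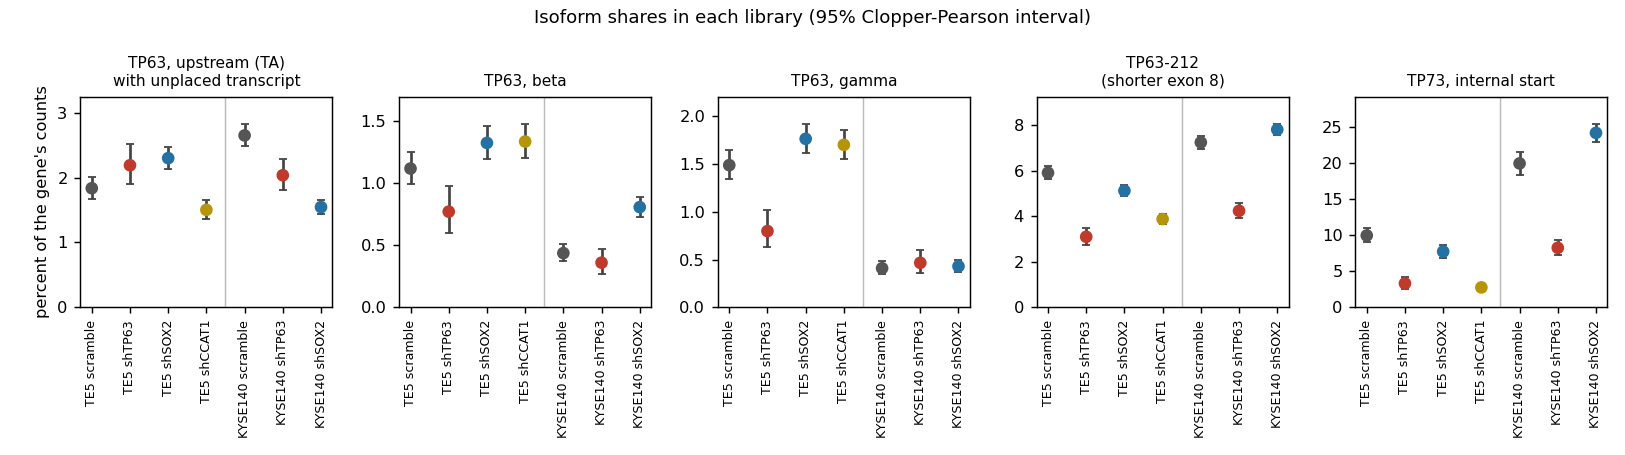
Share of the gene's counts held by 4 isoform classes and 1 transcript in each library, with 95% Clopper-Pearson intervals, on separate y axes from 0. TP63 gamma held 1.49% in TE5 scramble and 0.409% in KYSE140 scramble, TP63-212 was lower in both shTP63 libraries, and the TP73 transcripts with an internal start ranged from 2.76% to 24.2%.

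TP73 (ENSG00000078900, chr1:3569080-3652765) was expressed well below TP63. Its TPM was 17.0 in TE5 scramble and 14.1 in KYSE140 scramble, against 127 and 193 for TP63, a ratio of 7.44 and 13.7. In the shTP63 libraries the ratio was 4.16 in TE5 and 5.05 in KYSE140. TP73 stood at the 76.2 percentile of the genes listed above 0 in TE5 scramble and at the 72.5 percentile in KYSE140 scramble, so that it too was above most genes.

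Of TP73, TE5 had 4017 normalized counts in scramble, 1694 in shTP63, 3345 in shSOX2 and 3404 in shCCAT1. KYSE140 had 3352 in scramble, 2453 in shTP63 and 5931 in shSOX2. The shTP63 libraries were again the lowest of their lines, and the highest library was KYSE140 shSOX2. KYSE140 scramble, TE5 shSOX2 and TE5 shCCAT1 did not differ beyond their counting intervals.

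Upon TP63 silencing, TP73 was at 42.2% of scramble in TE5 (log2 fold change -1.24, -1.32 to -1.17) and at 73.2% in KYSE140 (-0.45, -0.53 to -0.37). The KYSE140 difference turns to 0.13 without scaling between libraries. The fit of both lines gave -0.87 (standard error 0.28, edgeR adjusted p = 0.398). DESeq2 gave -0.91 with an adjusted p of 0.0430. No word of 31 bases is shared between the annotated transcripts of TP63 and TP73, so that reads of one do not count for the other by exact sequence.

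Upon SOX2 silencing the lines differed in sign. TP73 was at 83.3% of scramble in TE5 shSOX2 (-0.26, -0.33 to -0.20), where 4.94% of genes were lower past the threshold, and at 177% in KYSE140 shSOX2 (0.82, 0.75 to 0.89). The fit gave 0.25 with a standard error of 0.27 (edgeR adjusted p = 0.878). In TE5 shCCAT1 TP73 was at 84.7% (-0.24, -0.30 to -0.18), and above scramble by 0.15 without scaling. Between the lines the fitted TP73 difference, KYSE140 against TE5, was 0.35 (standard error 0.22, edgeR adjusted p = 0.251). The scramble libraries alone went the other way, with TP73 lower in KYSE140 than in TE5 (-0.26, counting interval -0.33 to -0.19).

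TP73 transcripts starting at the upstream promoter held most of the gene. They summed to 3616 normalized counts in TE5 scramble, 1638 in TE5 shTP63, 3086 in TE5 shSOX2 and 3309.96 in TE5 shCCAT1. In KYSE140 they summed to 2683 in scramble, 2250.4 in shTP63 and 4496 in shSOX2. The most abundant was TP73-208, the long transcript of alpha type with exon 13, which held between 68.3% and 91.9% of the gene.

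Transcripts starting inside the gene were fewer and more variable. They summed to 400.2 normalized counts in TE5 scramble, 56.2 in TE5 shTP63, 259 in TE5 shSOX2 and 94.0 in TE5 shCCAT1. In KYSE140 they summed to 669 in scramble, 202 in shTP63 and 1435 in shSOX2. The shTP63 library was lowest in both lines, and in TE5 each knockdown library was below scramble. On the log2 scale they differed upon TP63 silencing by -2.81 (-3.22 to -2.47) in TE5 and -1.72 (-1.96 to -1.50) in KYSE140, against -1.14 (-1.22 to -1.06) and -0.25 (-0.34 to -0.17) for the upstream transcripts. By TPM the internal TE5 value was -1.57, and the upstream TE5 value was within the threshold without scaling (-0.73). Their share of the gene went from 9.96% (9.03% to 10.9%) to 3.32% (2.60% to 4.15%) in TE5 and from 20.0% (18.4% to 21.6%) to 8.25% (7.22% to 9.34%) in KYSE140. In TE5 shCCAT1, of the same lane as TE5 shTP63, the share was 2.76% (2.28% to 3.29%), so that a lower share was not particular to TP63 silencing in that line. In the shSOX2 libraries the share was 7.73% in TE5 and 24.2% in KYSE140. By summed TPM the share went from 16.2% to 10.8% in TE5 shTP63 and from 35.3% to 19.8% in KYSE140 shTP63. By this measure it was 8.43% in TE5 shCCAT1 and 22.7% in TE5 shSOX2, the latter above scramble.

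A fit with TP73 split by start, added after the values were seen, gave -2.33 for the internal transcripts upon TP63 silencing (standard error 0.48, edgeR adjusted p = 0.302) and -0.71 for the upstream ones (standard error 0.27, adjusted p = 0.441). Between KYSE140 and TE5 the internal transcripts differed by 1.67 (standard error 0.39, edgeR adjusted p = 0.0219) and the upstream ones by 0.18 (standard error 0.22, adjusted p = 0.535). This comparison called 17475 of 30172 features. Between the scramble libraries alone the internal transcripts differed by 0.74 (counting interval 0.55 to 0.94). The upstream ones were lower in KYSE140 scramble (-0.43, -0.51 to -0.35), opposite in sign to the fit.

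The internal class includes retained-intron transcripts. Of the 31-base words of TP73, 8.42% are also in TP73-AS1, the antisense neighbour, and no strand is stated, so that such reads cannot be told apart. Which TP73 transcripts hold these words was not examined. For the protein-coding internal transcripts alone, among them those of ΔNp73, the normalized counts were 308 in TE5 scramble, 0 in TE5 shTP63, 70.4 in TE5 shSOX2 and 32.0 in TE5 shCCAT1. In KYSE140 they were 487 in scramble, 59.4 in shTP63 and 1131 in shSOX2. With 0 counts in TE5 shTP63 they were at least 131-fold lower there than in scramble, taken against a floor of 3 counts in that library, and the log2 fold change was -3.01 in KYSE140. The retained-intron transcript TP73-210 begins with the same internal first exon as TP73-206. It had 73.9 estimated counts in TE5 scramble, 45.9 in shTP63, 98.7 in shSOX2 and 78.0 in shCCAT1. In KYSE140 it had 80.7 in scramble, 120 in shTP63 and 192 in shSOX2. The 0 thus holds for the coding transcripts alone, as the counts were assigned between isoforms.

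These coding transcripts were carried by different ones in different libraries. TP73-206 was at 246 normalized counts in TE5 scramble and at 0 in the other TE5 libraries, and it was at 262, 59.4 and 523 in KYSE140 scramble, shTP63 and shSOX2. TP73-207 was at 61.5, 0, 70.4 and 32.0 in TE5 scramble, shTP63, shSOX2 and shCCAT1, and at 163, 0 and 608 in the KYSE140 libraries in the same order. TP73-205 was at 61.7 in KYSE140 scramble and under 1 count in the other libraries. Counts that go to 0 in 1 transcript beside a related one that stays are at the limit of what the assignment between isoforms can tell. The retained-intron transcript TP73-214 had 8.76 estimated counts in TE5 scramble, 19.5 in shTP63, 80.7 in shSOX2 and 0 in shCCAT1. In KYSE140 it had 52.5 in scramble, 32.9 in shTP63 and 57.5 in shSOX2.

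Of the upstream transcripts beside TP73-208, TP73-203, which skips exons 11 and 13, was at 303 in TE5 scramble, 29.6 in TE5 shTP63, 109 in TE5 shSOX2 and 180 in TE5 shCCAT1. KYSE140 had 161 in scramble, 52.6 in shTP63 and 325 in shSOX2. TP73-202, which skips exon 13, was at 92.8, 106, 37.6 and 0 in the TE5 libraries and at 72.5, 93.2 and 118 in those of KYSE140, in the same orders, and was thus not lower in the shTP63 libraries. Of the 14 TP73 transcripts, 8 passed the filter in TE5 shTP63, with 6 lower and 2 within the threshold, where 13.9% of all transcripts were lower. In KYSE140 shTP63 8 passed, with 5 lower and 3 within (12% of all transcripts lower). Lower transcripts were also frequent in the other TE5 knockdowns, with 4 of 8 in shSOX2 (12.6% of all) and 3 of 7 in shCCAT1 (17.9%), while in KYSE140 shSOX2 3 of 8 were higher (18.2%). The others were too low to be compared, and 3 were listed at 0 in all libraries. A transcript passed where either library reached 10 counts, so that some passed through scramble alone. Among them were TP73-206 and TP73-207 in TE5 and TP73-205 and TP73-207 in KYSE140, all at 0 in shTP63. The TP73 transcripts also share exons, so that these numbers are not independent of the gene and the share over all transcripts is no test of them.

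A list of 26 genes described as targets of p63 was followed beside its members. It was drawn up with earlier results of these data known. In TE5 shTP63, 8 of 26 were lower past the threshold, where 5.53% of all genes were, and 1, the cell cycle inhibitor CDKN1A at 1.01, was higher, where 15% of all genes were. In KYSE140 shTP63, 1 was lower, the keratin KRT14 at -1.70, and none was higher, where 4.31% of all genes were lower and 8.82% higher, so that these counts are not above the share over all genes. In each line 20 of the 26 were below 0, with a median log2 fold change of -0.49 in TE5 and -0.29 in KYSE140, against a median over all genes of 0.07 and 0.04. In the fit, which called 0.0% of all features, 0 of 26 passed at an adjusted p under 0.1 by edgeR. The median in the fit was -0.42 against 0.05 over all features.

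None of the 26 was past the threshold in the same direction in both lines. Among those below 0 in both, named here after their values were seen, were KRT5, the keratin of basal squamous cells, at -1.79 in TE5 and -0.71 in KYSE140, and ITGA6, an integrin of the hemidesmosome, at -0.86 and -0.92. JAG1, a Notch ligand, was at -1.05 and -0.81, and ZNF750, a factor of squamous differentiation, was at -1.31 and -0.84. KRT5 was also lower in TE5 shCCAT1 (-1.47), where 22 of the 26 were below 0 with a median of -0.29. In KYSE140 shSOX2 21 of 26 were above 0 with a median of 0.34, and in TE5 shSOX2 14 of 26 were, with a median of 0.02. TP63 itself was higher than scramble in both of these libraries.

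**Figure D5:**
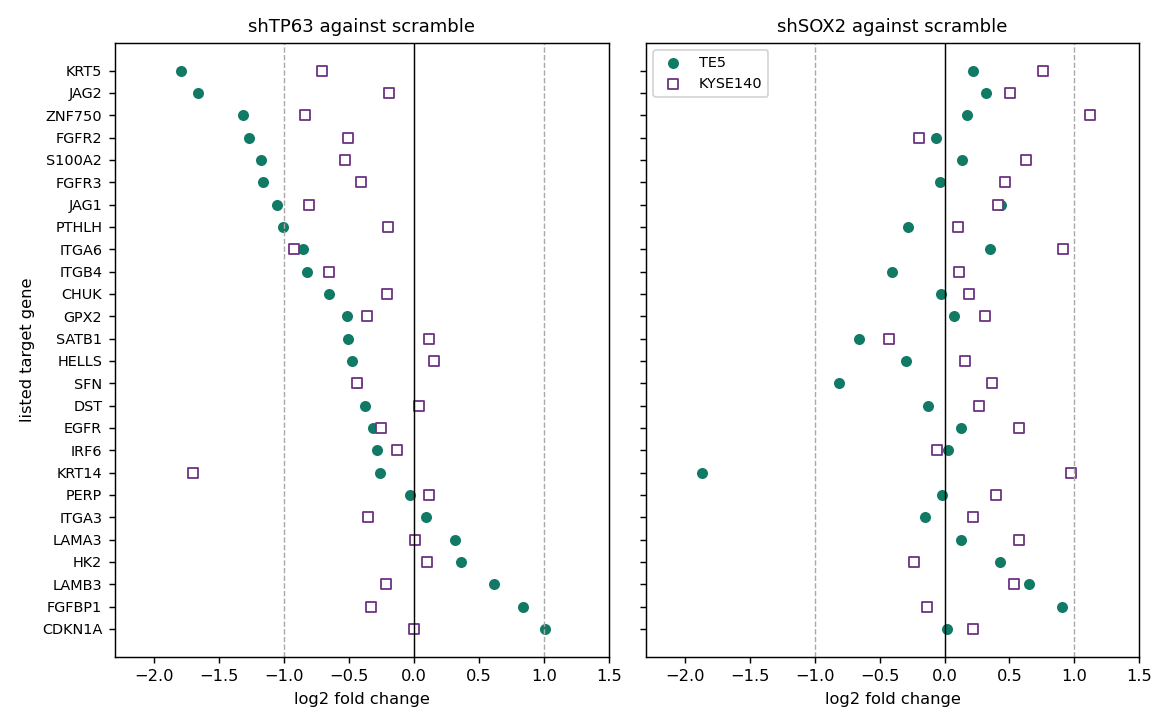
Log2 fold change of the 26 listed target genes in the shTP63 libraries (left) and the shSOX2 libraries (right), against scramble of the same line (circles, TE5; squares, KYSE140; dashed lines, the threshold of 1), in the order of their TE5 shTP63 values. 20 genes of each line lie below 0 on the left, and 21 of KYSE140 lie above 0 on the right.

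Of 14 listed regulators of p63 and p73 (ubiquitin ligases such as ITCH and WWP1, the ASPP proteins, and kinases and cofactors of p73 such as ABL1 and YAP1), 0 were past the threshold in either shTP63 library. Of all genes, 5.53% were lower and 15% higher in TE5, and 4.31% lower and 8.82% higher in KYSE140. The median was -0.18 in TE5 and 0.02 in KYSE140, against 0.07 and 0.04 over all genes. In the edgeR fit 0 of the 14 passed, where 0.0% of all features were called. In TE5 shCCAT1 1 of the 14 was lower, near the 6.03% of all genes that were.

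The neighbours of both genes on the chromosome were given for comparison. Of 7 listed neighbours of TP63, 6 were measured, and of these 1 was lower in TE5 shTP63 (LPP, -1.30) and 1 higher in KYSE140 shTP63 (CLDN16, 1.23), both named after their values were seen, where 5.53% and 8.82% of all genes were. CLDN16 was near the filter, at 9.56 normalized counts in KYSE140 scramble and 23.8 in KYSE140 shTP63. The 9 neighbours of TP73 were all below 0 in TE5 shTP63 with a median of -0.61, and the 7 measured in KYSE140 shTP63 were all below 0 with a median of -0.08, none of them past the threshold. Of all genes, 5.53% and 4.31% were lower past it, and the medians were 0.07 and 0.04. In TE5 shCCAT1, of the same lane as TE5 shTP63, 8 of the 9 were below 0 with a median of -0.33, against 0.02 over all genes. There 1 was lower past the threshold. CCDC27 and SMIM1 were at 11.7 and 7.02 normalized counts in TE5 shTP63. TP73 was at -1.24 and -0.45 in the same libraries. Whether the region as a whole takes part in the TP73 values was not tested.

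The 12148 genes that had 100 counts or more in all libraries were compared by level. Those whose log2 levels over the 7 libraries were most like TP63 were USP30, a mitochondrial deubiquitinase (Pearson r = 0.990), GM2A, the ganglioside activator protein (0.989), COX10, an enzyme of heme A synthesis (0.988), TFG, a factor of vesicle transport (0.985), and ATP5PB, a subunit of ATP synthase (0.980). The most like TP73 were ZNF696, a zinc finger gene (0.986), COX4I1, a subunit of cytochrome c oxidase (0.982), PCBD1 (0.976), SOX15, a SOX family factor (0.973), and CNNM1 (0.959). TP63 and TP73 themselves had an r of 0.909, below that of the gene at rank 123 for TP63 (0.919). By deviations from the mean of the line, none of the named genes was among the first 5. They then ranked 14 to 44 for TP63 and 12 to 105 for TP73. COX4I1 ranged only from 21057 to 27633 normalized counts, against 1694 to 5931 for TP73. These are descriptions over 7 libraries that share 2 lines.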

How the data were processed

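The authors pseudoaligned 100 bp paired-end reads of each library to the hg19 Ensembl transcriptome with kallisto (version not given in the sources used here) and deposited estimated counts and TPM values per transcript; neither is scaled between libraries beyond TPM's own sum. Transcripts were assigned to genes by identifier with the GENCODE 44 annotation on hg19 (182863 of 196354 transcripts, 93.58% of counts). The other 13491 (6.42% of counts) stayed features of their own. Gene counts were scaled with TMM (edgeR 4.0.16, R 4.3.3). Pairwise values are log2((shRNA + 1)/(scramble + 1)) of normalized counts, where 1 of the 2 libraries reached 10 counts, with exact conditional binomial intervals. The fit of 6 libraries used counts rounded to whole numbers, filterByExpr, the line and the shRNA as terms, and Benjamini-Hochberg adjustment over all features. No replicate number is in the labels; the line is the block. On simulated counts with 200 of 30171 features changed by 2 on the log2 scale (dispersion 0.02), the TP63 comparison recovered 100% and 9.5% of its calls were false. The simulated libraries held no difference between the lines and had a lower dispersion than the deposited data, so that these rates do not carry over to them. In the deposited data edgeR estimated a dispersion of 0.141, and of 0.0457 with genes only.

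The members, lists and added alternatives were chosen with earlier results of these data known. Named were TP63 and TP73, their transcripts with at least 1% of the gene in 1 library (the others by range), the 5 genes most like each, and listed genes that passed in the fit or in both lines; others are said to be named after their values were seen. DESeq2 1.42.0 and other scalings, filters, pseudocounts and leave-one-out fits were alternatives. Python 3.11.15, scipy 1.17.1 and matplotlib 3.10.9 were used for the rest.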

Additional observations from a re-analysis of the deposited data

Results flagged for a closer look

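Upon SOX2 silencing, several values lay above scramble in one line and below it in the other, with counting intervals on either side of 0. TP73 differed by -0.26 in TE5 and by 0.82 in KYSE140. Its upstream transcripts differed by -0.23 and 0.74 and those with an internal start by -0.63 (0.24 by TPM) and 1.10. Of single TP73 transcripts, TP73-208 differed by -0.11 and 0.73, TP73-202 by -1.28 and 0.70, and TP73-203 by -1.47 and 1.00.

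TP63 went the other way for the upstream promoter: the TA transcripts differed by 0.54 in TE5 and by -0.28 in KYSE140, and TP63-201 by 0.41 and -0.29. TP63-208, a short ΔN transcript, differed by -0.53 and 1.67, and TP63-211, a ΔN alpha transcript without exon 4, by -0.50 and 1.01. With 1 library per condition these differences between lines were not tested. SOX2 was at -1.34 in TE5 shSOX2 and at -0.39 in KYSE140 shSOX2, and the part of this in the values was not tested.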

How the results depend on the processing

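In TP63 silencing, the direction of TP63, TP73 and every TP63 class held under each alternative of the fits. With DESeq2 in place of edgeR, TP63 (-1.99, adjusted p = 8.50e-58) and TP73 (-0.91, adjusted p = 0.0430) passed, as did TA, ΔN, alpha, beta, gamma, TP63-203 and TP63-212. Upon TP63 silencing DESeq2 called 2235 of 16716 genes and transcripts without a gene, and 2641 of 31446 transcripts. Upon SOX2 silencing it called 888 of 20520 and 1415 of 84950. With genes only, TP63 passed (-1.95, adjusted p = 0.0368), with 220 genes called upon TP63 silencing and 34 upon SOX2 silencing. This fit had fewer features (23438 against 30171) and a lower estimated dispersion (0.0457 against 0.141). The causes of these differences were not tested.

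The lines are the replicates, so the block of the fit is the line and the labels give no other pairing. With no replicate block, TP63 differed by -1.95 and TP73 by -0.82 upon TP63 silencing and by 0.27 and 0.31 upon SOX2 silencing, with adjusted p of 1.00. The count upon SOX2 silencing then was 0, and TA turned to -0.00699 (from 0.21).

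Leaving out 1 library at a time, the fitted TP63 difference upon TP63 silencing ranged from -1.99 to -1.94 (adjusted p 0.156 to 0.922) and that of TP73 from -1.31 to -0.39. Upon SOX2 silencing TP73 ranged from -0.20 to 0.72, below 0 without the scramble (-0.20) or the shSOX2 library (-0.08) of KYSE140. TA ranged from -0.90 to 0.97, below 0 without KYSE140 scramble (-0.02) or TE5 shSOX2 (-0.90), and TP63-212 from -0.038 (without KYSE140 shSOX2) to 0.33. The SOX2 count was 0 without any 1 library. Between the lines, TP73 ranged from 0.12 to 0.66 and passed without the scramble library of TE5 (0.66) or KYSE140 (0.66), beta ranged from -0.38 to 0.00126 (without KYSE140 scramble), and the transcripts called ranged from 13317 to 18325, the lower number without TE5 scramble; each of the 6 libraries lowers it by over 1.5 times, with 1 residual degree of freedom fewer.

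For pairs of libraries, with no scaling, TP63 was at -1.56 (TE5 shTP63), 0.16 (TE5 shCCAT1), -1.36 (KYSE140 shTP63) and 0.50 (KYSE140 shSOX2), and TP73 at -0.83, 0.15, 0.13 and 1.00. With TPM and a pseudocount of 0.1, TP63 was at -1.94, 0.15 (TE5 shSOX2), -0.18, -1.99 and 0.23, and TP73 at -1.09 (TE5 shTP63), -0.55 (KYSE140 shTP63) and 0.73 (KYSE140 shSOX2). With DESeq2's size factors TP63 was at -0.25 (TE5 shCCAT1), -1.98 (KYSE140 shTP63) and 0.31 (KYSE140 shSOX2). Of 400 pair values under an alternative, 292 stayed within the counting interval and 108 moved further. Of these 400, 13 changed sign, 10 with no scaling (6 of TP63 and its classes and 2 of TP73 in TE5 shCCAT1, 2 of TP73 in KYSE140 shTP63) and 3 by TPM, among them the internal TP73 transcripts in TE5 shSOX2 (0.24), and 10 were no longer past the threshold. Of the other values 342 kept direction and side, 89 moved, 15 passed where they had not, 6 lost a call and 7 changed sign. Leaving transcripts of no promoter class out of the shares gave no value, since each annotated one has a class. Depth limits the transcripts under 10 counts in both libraries, which could not be compared.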
